A study of Mus musculus with 6 samples.

Results

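H2-Q7 and Gsdmd are both genes of the immune system, and each was read by 1 gene probe on arrays made for circular RNAs. They are 2 of the 50 gene probes of the design, found by probe name and by the transcript accession in the scanner tables (probe A_51_P262079, NM_010394, for H2-Q7 and probe A_51_P172231, NM_026960, for Gsdmd). Each probe was printed as 10 spots on every array. The pair was chosen by measured values of these arrays, the difference between myotubes and myoblasts included, so that difference is given as a description and carries no test.

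RNA came from C2C12, a mouse line of muscle precursor cells. The myoblast group was grown in DMEM with 10% fetal bovine serum, and the myotube group was differentiated in DMEM with 2% horse serum. Each group had 3 arrays, described by the study as independent experiments, and all 6 were labelled with Cy3 from total RNA. Both groups are 1 line, and how many days the myotubes had been differentiating, and whether linear RNA was removed before labelling, are not given in the sources used here. It is therefore uncertain how far the gene probe signals stand for messenger RNA.

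H2-Q7 encodes a heavy chain of the Qa-2 antigen, a class I histocompatibility molecule of the Q region that pairs with B2m and holds peptides at the cell surface. Class I genes are switched on in most cells by interferons and by NF-kappa-B, and resting skeletal muscle shows little class I protein. Gsdmd encodes gasdermin D, a pore-forming protein: inflammatory caspases cut it, and the freed N-terminal part opens pores in the plasma membrane in the form of cell death called pyroptosis. Most is known of it in macrophages and other leukocytes.

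Class I genes resemble each other closely, also where their transcription is controlled. A stretch upstream of each annotated transcription start is shown because in H2-Q7 it holds elements through which interferons and NF-kappa-B are known to act on class I genes. It lies outside the transcript, so it says nothing of which RNAs the H2-Q7 probe binds. The capitals at the right, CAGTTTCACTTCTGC, are the longest run of letters that H2-Q7 shared with all 5 of the class I genes nearest to it among the 16 compared, and they hold the interferon response element, where interferon regulatory factors bind. The capitals at the left, GGCTGGGGATTCCC, are the next shared run of at least 10 letters upstream in H2-Q7, H2-Q6, H2-D1 and H2-K1. They hold enhancer A, a site of the NF-kappa-B type. The letter after this run is a in H2-Q7 and c in H2-Q6, H2-D1 and H2-K1. H2-Q4 and H2-Q10 lack the full run of letters, which does not tell whether they lack such a site. The sequences are from RefSeq, build GRCm38.p6, read 5′ to 3′ along the gene.
H2-Q7: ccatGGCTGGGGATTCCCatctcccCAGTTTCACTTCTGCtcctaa
H2-Q6: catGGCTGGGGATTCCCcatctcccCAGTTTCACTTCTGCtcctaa
H2-D1: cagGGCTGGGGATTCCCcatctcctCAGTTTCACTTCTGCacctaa
H2-K1: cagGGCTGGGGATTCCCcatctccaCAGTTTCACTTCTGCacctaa
H2-Q4: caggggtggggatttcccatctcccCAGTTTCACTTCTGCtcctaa
H2-Q10: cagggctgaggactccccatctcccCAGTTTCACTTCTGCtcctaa
The H2-Q7 stretch is chr17:35439014-35439059 on the plus strand and ends 96 bases before the start. The others lie at chr17:35424670-35424715 (H2-Q6, plus strand), chr17:35262916-35262961 (H2-D1, plus), chr17:34000420-34000465 (H2-K1, minus), chr17:35379436-35379481 (H2-Q4, plus) and chr17:35469906-35469951 (H2-Q10, plus).

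Over the 250 bases before the start, H2-Q6 was nearest to H2-Q7 among these 16 genes, with 97.2% identity over 211 aligned positions. H2-Q8 and H2-Q9 were not compared. H2-D1 had 84.6%, H2-Q4 83.2%, H2-Q10 79.3% and H2-K1 78.9%, whereas the other 11 class I genes compared lay between 50.8% and 59.9%. The H2-K1 and H2-D1 products are the classical class I molecules, found on most cells. On either strand, the run with enhancer A stood in 5 of 32851 promoter windows of this length (0.0152%). The class I genes with it were H2-Q7, H2-Q6, H2-D1 and H2-K1. The run with the interferon element stood in 7 windows (0.0213%), and the class I genes with it were the 6 genes shown. The runs do not overlap, and they were chosen after the sequences had been seen.

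The table that gives the probe its name lists Qa-2 as a synonym of 3 genes, H2-Q7, H2-Q8 and H2-Q9. It describes C57BL/6J, whereas C2C12 was derived from C3H mice, which carry another class I haplotype. The letters of the probe itself are not used here, so which class I transcripts it could bind in these cells was not tested. The H2-Q7 values are for that reason values of the probe, and transcripts of similar class I genes may be part or all of them.

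All 120 spots of the 2 probes, 10 per probe and array, were well above background by the scanner software's own call. Of these, 4 carried an outlier flag and were left out. Signal below is the processed signal of Feature Extraction, a linear intensity after background subtraction, as the geometric mean over the spots of a probe. It is called unscaled, since nothing has yet been done to make the arrays alike.

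H2-Q7 had an unscaled signal of 76.5 on the array of myoblast 1, 138 on myoblast 2 and 76.7 on myoblast 3. In myotubes it had 51.1, 60.7 and 75.8 on arrays 1, 2 and 3. Myoblast 2 stood well above the other 5 arrays, and myotube 3 came within 1 unit of myoblasts 1 and 3. Myoblasts averaged 97.2 ± 35.7 and myotubes 62.5 ± 12.4 (SD over 3 arrays a group), a log2 difference of -0.60. The groups did not overlap, but only just: with the flagged spots kept, myoblast 3 stood at 73.6, below myotube 3.

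Gsdmd was dimmer and went the other way. In the order of replicate numbers, its unscaled signal was 11.6, 10.8 and 11.4 in myoblasts, against 13.7, 13.4 and 16.9 in myotubes. Every myotube array lay above every myoblast array. Myoblasts averaged 11.3 ± 0.416 and myotubes 14.7 ± 1.94 (SD over 3 arrays a group), a log2 difference of 0.37.

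**Figure D1:**
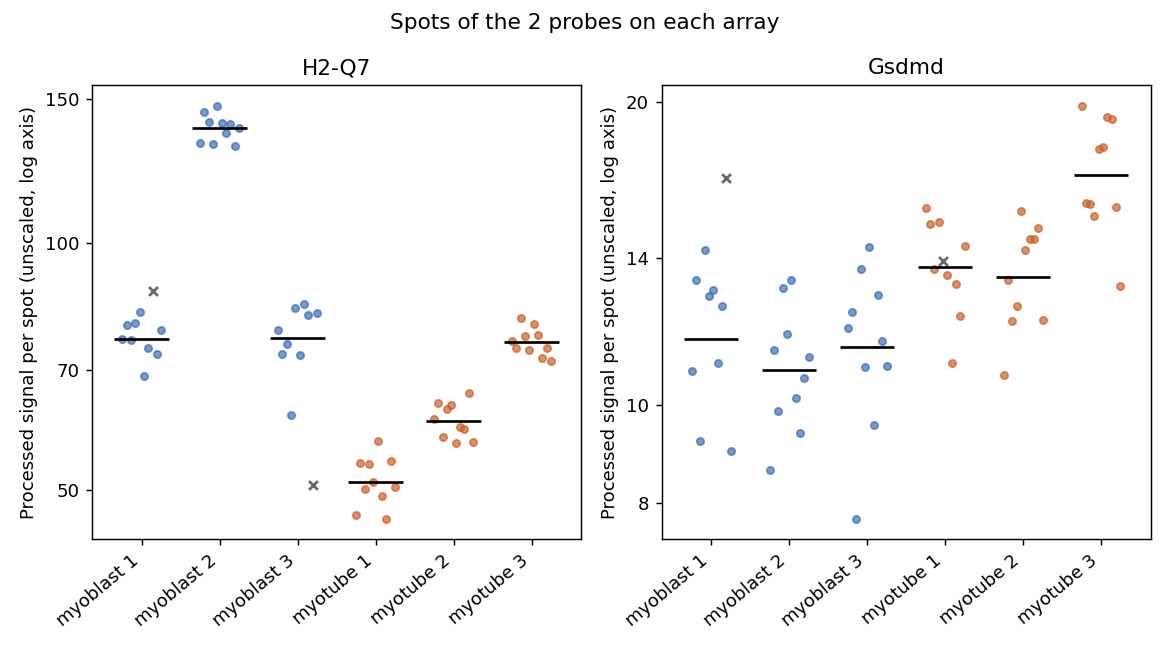
Processed signal of each spot (points, log axis, unscaled) of the H2-Q7 and Gsdmd probes on each of the 6 arrays, with the geometric mean as a bar; crosses are flagged spots left out of it. The 10 spots of myoblast 2 for H2-Q7 all lie above those of the other arrays, and the Gsdmd bars are higher on the myotube arrays.

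The repeated spots show how well each array measured the probes. For H2-Q7 the coefficient of variation over the spots of 1 array was between 3.86% and 9.32%, and the standard error of an array's log2 mean between 0.018 and 0.047. The SD between arrays was 0.49 in myoblasts and 0.28 in myotubes on the same scale, so most of the spread lay between arrays and not between spots. For Gsdmd the coefficient of variation was larger, 10.98% to 16.9%, with standard errors of 0.055 to 0.083. The SD between arrays was 0.053 in myoblasts, no larger than the error of 1 array, and 0.19 in myotubes.

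The same grid positions were used on every array, which gives the difference between the states 10 times over. These are repeats within the same 6 arrays and not further samples. H2-Q7 was lower in myotubes at 10 of 10 positions, with unscaled log2 differences from -0.87 to -0.44. Gsdmd was higher at 10 of 10 before scaling, from 0.068 to 0.63. After scaling to the 75th percentile of each array, Gsdmd was lower at 9 of 10, from -0.46 to 0.10, and H2-Q7 still at 10 of 10.

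Gsdmd lay close to the floor of the arrays. As medians of an array's spots, the local background around it was 11 to 13 scanner units and the raw signal 25 to 31.5. Single spots ran from 10 to 14 for background and from 21 to 35 for raw signal. For H2-Q7 the array medians were 12 to 13 and 65 to 156. Of 15 negative probes, which should match no transcript, 14 never exceeded a processed signal of 4.42, and the brightest, MM9NEGATIVE017, ran from 5.40 to 8.58. The lowest Gsdmd array value, 10.8, was above that range.

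The arrays themselves differed in brightness, and this decides what direction Gsdmd is given. The 75th percentile of the signal over all 14330 non-control probes was 33.2, 36.4 and 30.2 for myoblasts 1, 2 and 3, against 37.6, 53.3 and 55.0 for myotubes 1, 2 and 3. Every myotube array was brighter than every myoblast array, at means of 48.7 ± 9.59 and 33.3 ± 3.12 (SD over 3 arrays a group; p = 0.1 in a 2-sided exact permutation test, where 3 against 3 can give no lower p). On the log2 scale the shift was 0.53. Of these probes, 14236 were for circular RNAs. Scaling subtracted this percentile from each array, so a scaled value tells how bright a probe was relative mainly to the circular RNA probes of that array. Myotubes 2 and 3 lay in the second row of array positions named in the headers, and the other 4 arrays in the first.

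After scaling, the H2-Q7 difference grew and the Gsdmd difference changed sign. The scaled log2 values of H2-Q7 were 1.20, 1.93 and 1.35 in myoblasts and 0.44, 0.19 and 0.46 in myotubes. The groups were clearly apart, and myoblast 2 was again the highest array. The scaled difference was -1.13 (SE 0.22 from limma, n = 3 each), a level 2.19-fold lower in myotubes than in myoblasts, where the unscaled signal was 1.51-fold lower.

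Scaled Gsdmd was -1.51, -1.75 and -1.40 in myoblasts and -1.46, -1.99 and -1.70 in myotubes. Here the groups overlapped, with myotube 1 between myoblasts 1 and 3. The scaled difference was -0.16 (SE 0.20 from limma, n = 3 each), smaller than its own error and smaller than the SD of 0.18 in myoblasts and 0.27 in myotubes. Gsdmd signal was thus 1.29-fold higher in myotubes in plain intensity, and 1.12-fold lower relative to the percentile. Normexp background correction in place of that of the scanner software gave an unscaled Gsdmd difference of 0.071 in place of 0.37. The scaled H2-Q7 difference was then -0.60 in place of -1.13. This correction also added 50 units to every spot, which draws log2 differences in signal toward 0, most for dim probes. How much of either change came from the added units was not tested.

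**Figure D2:**
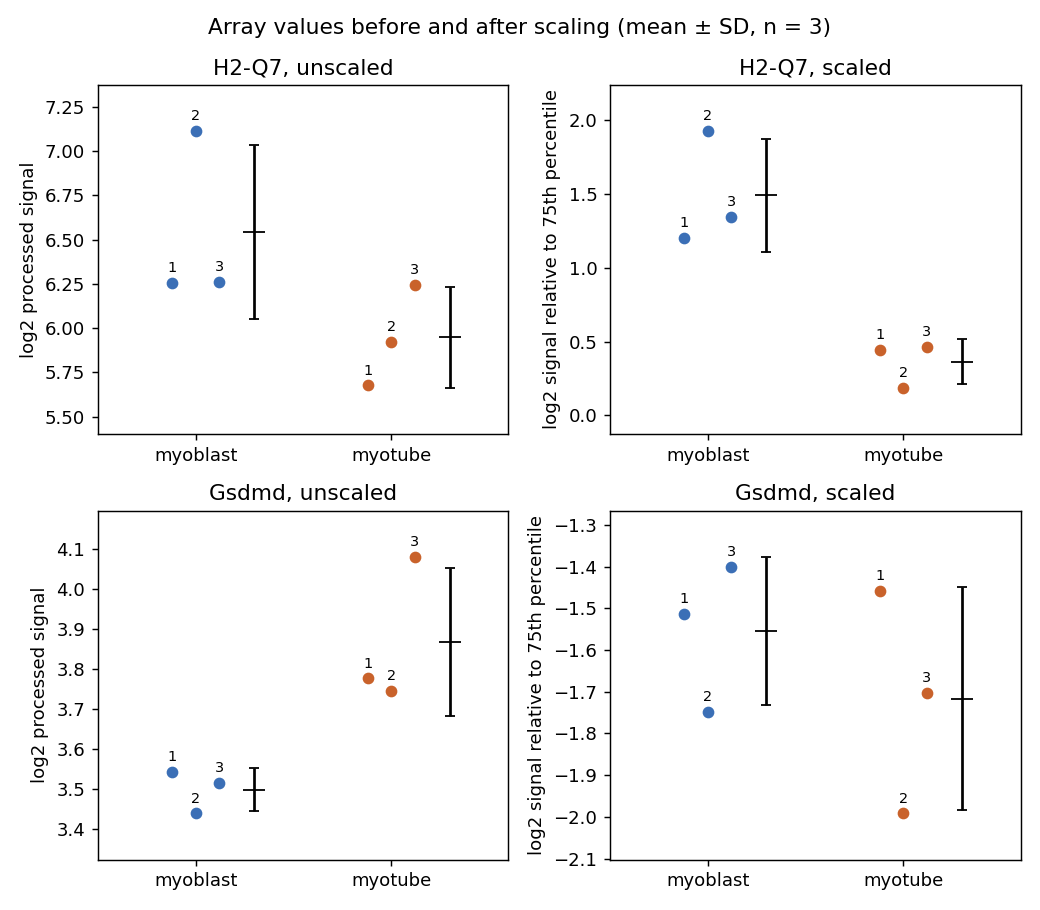
Log2 values of H2-Q7 (top) and Gsdmd (bottom) on each array before (left) and after (right) subtraction of the array's 75th percentile; numbers are replicate numbers and bars the mean ± SD of 3 arrays. H2-Q7 is lower in myotubes on both scales, whereas Gsdmd is higher before scaling (difference 0.37) and overlaps after it (difference -0.16).

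The other gene probes give the background for these values. Of the 26 that could be tested (well above background on all arrays of a group), 10 passed the limma threshold of an adjusted p of 0.05 on the scaled values, which is 38.5%, and 5 (19.2%) did so as lower in myotubes. H2-Q7 was among those 5 and Gsdmd among neither. Since this contrast chose the pair, nothing is read from that count. Without scaling, 5 of the 26 probes (19.2%) were lower in myotubes, and with scaling 17 (65.4%). Groups did not overlap for 15 probes (57.7%) before scaling and for 12 (46.2%) after it.

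A change of sign like that of Gsdmd was common among them. It was seen for 12 of the 26 probes (46.2%), higher in myotubes before scaling and lower after it. The median difference of the 26 was 0.34 unscaled and -0.20 scaled, and the Gsdmd values of 0.37 and -0.16 lay near both. For the 9348 circular RNA probes tested, the median was 0.54 unscaled and 0.0089 scaled. The direction after scaling is therefore relative to circular RNA probes. Scaled instead on the median of the gene probes above background on all arrays, Gsdmd differed by 0.092 and H2-Q7 by -0.87. H2-Q7 belonged to the few that were lower on either scale.

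**Figure D3:**
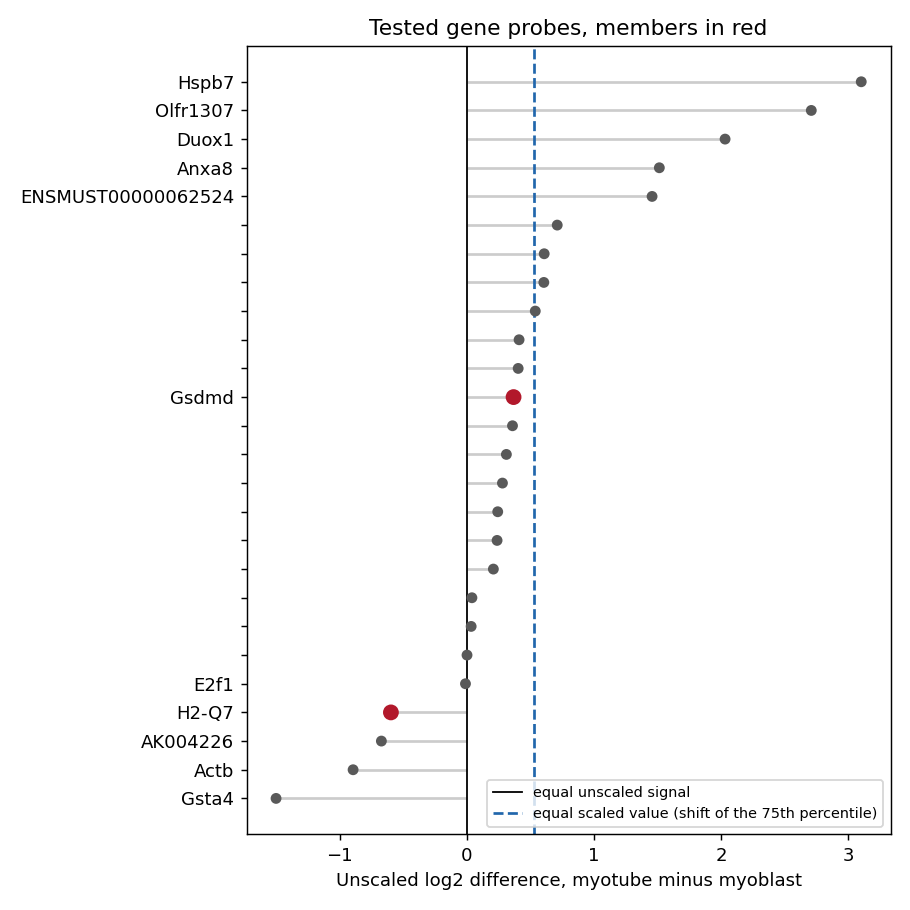
Unscaled log2 difference between myotubes and myoblasts (horizontal axis) for each of the 26 tested gene probes, H2-Q7 and Gsdmd in red; names are given for these and for the probes past the limma threshold. Points left of the solid line had less signal in myotubes, and points left of the dashed line, at 0.53, were lower after scaling; Gsdmd lies between the lines and H2-Q7 left of both.

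A ratio of the 2 probes within an array does not depend on scaling. H2-Q7 signal over Gsdmd signal was 6.57, 12.8 and 6.71 in myoblasts 1, 2 and 3, against 3.73, 4.53 and 4.48 in myotubes 1, 2 and 3. The groups did not overlap, and myoblast 2 stood apart again. The log2 ratio averaged 3.05 ± 0.54 for myoblasts and 2.08 ± 0.16 for myotubes (SD over 3 arrays a group), a difference of -0.96, or a 1.95-fold lower ratio in myotubes. With normexp correction, its 50 added units included, the difference was -0.44. The ratio shows unequal change of the probes, and not that either stayed the same.

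**Figure D4:**
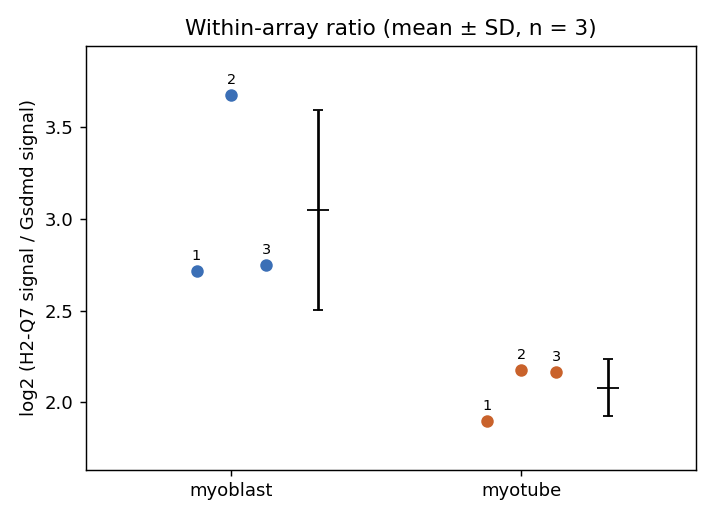
Log2 ratio of H2-Q7 signal to Gsdmd signal within each array, with the mean ± SD of 3 arrays and replicate numbers beside the points. Ratios are 2.72 to 3.67 in myoblasts and 1.90 to 2.18 in myotubes, and myoblast 2 is the highest.

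The size of the H2-Q7 difference depended on myoblast 2. Without that array the unscaled log2 difference was -0.31 in place of -0.60, the scaled one -0.91 in place of -1.13, and the difference in log2 ratio -0.65 in place of -0.96. The direction was the same in each. Myoblast 2 had the highest 75th percentile of the myoblast arrays. Of the 20 gene probes above background on all arrays, 14 had more signal there than on both other myoblast arrays, and 3 of these by over 1.5 times. Those were Acaa2, a mitochondrial thiolase (2.11 times the next), Anxa8, an annexin (2.02 times), and H2-Q7 (1.80 times). Whether these cells differed from the other myoblast cultures was not tested.

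Array position was uneven between the groups, and within the first row the only myotube array was myotube 1. There the scaled log2 difference was -1.05 for H2-Q7 (SE 0.33) and 0.096 for Gsdmd (SE 0.27), against -0.87 and 0.28 unscaled, the spread of the lone array being taken from the others. The H2-Q7 difference was close to that over all arrays on the scaled values (-1.13) and larger on the unscaled ones (-0.60), and Gsdmd had no settled direction after scaling.

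**Figure D5:**
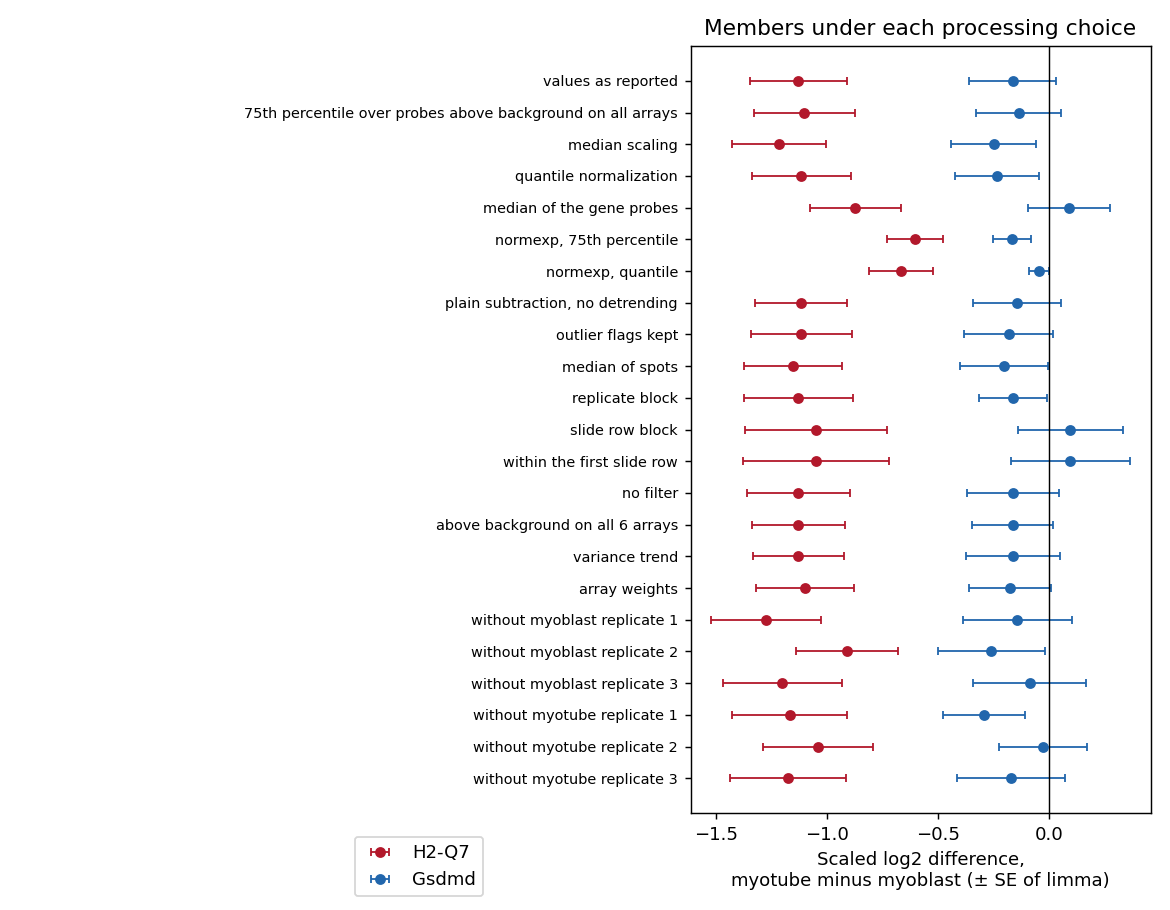
Scaled log2 difference between myotubes and myoblasts (± SE of limma) of H2-Q7 and Gsdmd under each processing choice listed at the left. H2-Q7 stays below 0 throughout, from -1.27 to -0.60, and Gsdmd lies from -0.29 to 0.096 around 0.

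Closest to H2-Q7 in its course over the 6 arrays was Actb, the cytoplasmic beta-actin, at a root mean square distance of 0.26 between scaled log2 profiles after each probe's mean was removed. The transcript AK004226 followed at 0.27 and Acaa2 at 0.38, among 19 gene probes compared. Actb, AK004226 and Acaa2 had scaled log2 differences of -1.43, -1.20 and -0.49 between myotubes and myoblasts. The distance includes this difference, so probes with one like that of H2-Q7 rank near it. Gsdmd ran closest to Gamt, an enzyme of creatine synthesis, at 0.089, then to Apoe, a lipid carrier, at 0.099. Those probes had scaled differences of -0.13 and -0.22. The distances are descriptions over 6 arrays, and a profile near that of other probes close to 0 is what a probe of little scaled difference would have.

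Little else of the immune system was on the array. Of 25 class I heavy chain genes listed, H2-Q7 was the only one with a gene probe, and of 24 genes of gasdermins and pyroptosis, Gsdmd was the only one. No gene probe was there for any of the 15 genes of class I assembly and peptide supply, B2m and the Tap transporters included. The same was true of the 17 interferon response genes, the 12 cytokine and chemokine genes listed, the 13 of innate sensing, the 8 of complement and class II, the 6 leukocyte markers such as Ptprc and the 3 fibroblast markers. So neither the partners of H2-Q7, nor the caspases that cut Gsdmd, nor other cell types could be read beside them.

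Il2, the T cell growth factor, and Mzb1, a protein of plasma cells, were noticed on the array after its probes had been seen. Il2 had a signal of 3.91, 4.005 and 4.13 in myoblasts and 6.52, 6.08 and 7.17 in myotubes, inside or below the range of the brightest negative probe. Its spots were well above background in 1, 3 and 3 of 10 cases on the myoblast arrays and in 9, 8 and 10 of 10 on the myotube arrays. Scaled, the groups overlapped, at -3.18 to -2.87 in myoblasts and -3.13 to -2.53 in myotubes, and no fold is given at this level. Mzb1 lay between 0.998 and 1.61 with no spot well above background on any array.

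Of the markers of the cell states, 1 of 12 for myotubes and 1 of 6 for myoblasts had a gene probe. Hspb7, a small heat shock protein of muscle, had a signal of 9.12 to 15.5 in myoblasts and 71.5 to 162 in myotubes. Actb had 529 to 653 in myoblasts and 289 to 352 in myotubes. Both were listed with earlier results of these data known, so their directions carry no test. Defining markers such as Myog, the myosin heavy chains and Pax7 had no gene probe, so the labels could not be checked independently.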

How the data were processed

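Intensities were deposited by the authors as Feature Extraction 11.0.1.1 tables, per the file headers background-subtracted and spatially detrended, and not scaled between arrays. The deposited log2 value table of 11128 circRNA probes held 0 gene probes and gave no result here. Symbols came from a RefSeq table of GRCm38.p6, which named 44 of 50 gene probes; the array headers name mm9. Spots with an outlier flag (34 to 72 an array) were left out, and spots averaged on the log2 scale. Each array's 75th percentile over non-control probes was subtracted. Detection of a probe required 50% or more of its spots to be well above background. Gene probes were fitted with limma 3.58.1 in R 4.3.3 (lmFit, eBayes, 2-sided, Benjamini-Hochberg), tested on simulated data.

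Members and lists were chosen with earlier results of these data known. The named genes were the pair, list members found, the 3 nearest profiles per member (1 of them is not reported here), and the 5 nearest class I genes. The last were to be ranked by protein; upstream sequence was used instead (Biopython 1.88, local alignment, match 2, mismatch -1, gap -4 and -1), for 17 of 25 listed genes. The normexp alternatives used the spot median, as the tables used hold no spot mean. The number of arrays limits the precision, and the limma p-values set a difference against the spread between these arrays.

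Replicate numbers were checked for pairing: deviations of same-numbered arrays from their group means correlated at -0.019, 0.017 and -0.088 across 9351 probes, so the numbers were not taken to pair the arrays.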

Additional observations from a re-analysis of the deposited data

How the results depend on the processing

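H2-Q7 was lower in myotubes under all 22 alternatives for the scaled and all 11 for the unscaled difference. Among the former, the replicate block, the filter choices and the variance trend cannot change the difference, which was -1.13 in each. The slide row block and the first row alone give the same estimate, -1.05. The count is therefore larger than the number of separate checks. With normexp correction, scaled H2-Q7 was -0.60 (75th percentile) and -0.67 (quantile) on the log2 scale. Unscaled Gsdmd was then 0.071, the difference in log2 ratio -0.44 and the percentile shift 0.24. The offset of 50 units that it added to every spot draws log2 differences in signal toward 0. Scaled Gsdmd changed sign in 3 of 22 alternatives. It was 0.092 when arrays were scaled on the median of the gene probes. With slide row as a block and within the first row it was 0.096, and these are the same contrast. Leaving out 1 array at a time gave -1.27 to -0.91 for scaled H2-Q7, -0.29 to -0.026 for scaled Gsdmd, -0.74 to -0.31 for unscaled H2-Q7, 0.26 to 0.43 for unscaled Gsdmd, -1.13 to -0.65 for the log2 ratio and 0.43 to 0.71 for the percentile. The number of gene probes past the threshold was 7 to 12 against 10. With the replicate number as a block the differences were -1.13 (SE 0.24) and -0.16 (SE 0.15), with 8 probes past the threshold. The alternatives were listed before the tables were read, with earlier results known. Signal over background limits Gsdmd more than H2-Q7, with array medians of 25 to 31.5 for raw signal and 11 to 13 for local background.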
